A study of Homo sapiens with 19 samples.

Results

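The SR splicing factors are the serine/arginine-rich proteins that bind exonic sequences in pre-mRNA and help the spliceosome to recognise the neighbouring splice sites. The genes examined were SRSF1, SRSF2, SRSF3, SRSF4, SRSF5, SRSF6, SRSF7, SRSF9, SRSF10 and SRSF11. They were taken by name, 10 genes in all, from the 15 tables of splicing events, and their rows made up 95 of 218798 rows, or 43 of 100239 distinct events. Of the 10 genes, 9 had at least 1 event. SRSF1, the founding member of the family, had none and is described only for AKAP8 peaks.

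Most SR genes keep their own output in check through unproductive splicing. An extra exon that carries a premature stop codon (a poison exon), or a retained intron, turns part of the transcripts into targets of nonsense-mediated decay, the pathway that destroys mRNAs with early stop codons, or keeps them in the nucleus. A high SR protein level favours the unproductive form in several of these genes. The share of transcripts that include such a segment, the PSI, is therefore a measure of how an SR gene is spliced, although the unproductive form is partly lost before it can be sequenced.

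The RNA came from HMLE/Twist-ER cells, an immortalized human mammary epithelial line with a Twist protein fused to an estrogen receptor, in which tamoxifen starts an epithelial-mesenchymal transition (EMT). Untreated cells are the epithelial state (EPI) and cells given 20 nM tamoxifen the mesenchymal state (MES). For RNA-seq the cells stably carried an shRNA, either a control shRNA or one against AKAP8, a nuclear RNA-binding protein. In EPI there were 3 libraries with the control shRNA and 3 with AKAP8 knockdown, and in MES 3 and 2. AKAP8 eCLIP, which maps the RNA under a protein, was done in HMLE/Twist-ER cells of both states with 2 replicates each, and its peaks were merged over the replicates. All cells were of 1 line. The methods of the study call the replicates biological, but do not say whether the shRNA was introduced separately for each, so p-values measure the spread between these libraries.

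Libraries held 31258177 to 40852217 junction reads over cassette exons. In a sum of junction reads per gene, scaled between libraries, AKAP8 stood at 244, 310 and 245 in EPI control and at 121, 98.8 and 125 in EPI knockdown (log2 fold change -1.21 ± 0.25 SE, limma adjusted p = 0.0664). It stood at 382, 196 and 248 in MES control and at 108 and 122 in MES knockdown (-1.20 ± 0.28, limma adjusted p = 0.0322). Every knockdown library was below every control library. Of the marker genes, 5 of 5 measured epithelial genes were lower and 5 of 5 measured mesenchymal genes were higher in MES control than in EPI control, each past the test. In bulk RNA, fewer cells of a type and less RNA per cell cannot be told apart. The second EPI knockdown library differed most from its group, with a chi-square per gene of 160 and 188 against the other two, which differed by 37.8.

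The sequences of the segments that the results turn on are shown first, from the transcribed strand of GRCh37. In the SRSF6 and SRSF7 poison exons, shown from the first base to the premature stop codon of the Gencode transcript, capitals mark that stop codon. In SRSF5, the last 30 bases of a coding exon and the first 30 of the intron after it are shown, with the stop codon reached when the intron is kept in capitals. In SRSF10, capitals mark the AG of a pair of competing 3′ splice sites. Around the AKAP8 peak in SRSF6, which spans bases 31 to 51 of the 61 shown, capitals mark runs of 4 or more G.
SRSF6 poison exon, chr20:42087793-42087944, plus strand: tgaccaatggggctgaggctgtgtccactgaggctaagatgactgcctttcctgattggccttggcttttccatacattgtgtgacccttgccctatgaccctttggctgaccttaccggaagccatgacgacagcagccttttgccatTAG
SRSF7 poison exon, chr2:38976461-38976488, minus strand: gtttcttcgtttgagtcagtcgcctTGA
SRSF5 exon and intron, chr14:70235939-70235998, plus strand: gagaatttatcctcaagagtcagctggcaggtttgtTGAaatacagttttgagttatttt
SRSF10 splice sites, chr1:24298096-24298140, minus strand: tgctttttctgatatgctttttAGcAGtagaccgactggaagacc
SRSF6 AKAP8 peak, chr20:42087662-42087722, plus strand: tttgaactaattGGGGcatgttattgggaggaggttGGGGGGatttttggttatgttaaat

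The first question was whether loss of AKAP8 changes the splicing of the SR genes. An event was called when a quasi-binomial test moderated with limma gave an adjusted p under 0.05 and the PSI differed by at least 0.1. None of 31 tested events passed in EPI, where 0.0492% of all events did, and none of 28 passed in MES, where 0.054% did. An unadjusted p under 0.05 was reached by 1 member event in EPI (4.76% of all events) and by 0 in MES (3.88%). Limma on the logit of PSI called 0 member events in each state. It also called 0 of all 65008 events in EPI and 0 of all 59288 in MES, so it could not set the SR genes apart. The lowest adjusted p of a member event was 0.684 in EPI and 0.763 in MES. The median size of the PSI difference was 0.00578 in EPI against 0.00777 over all events, and 0.00609 in MES against 0.0101.

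The retained intron of SRSF5 was the segment with the largest PSI difference among those with many reads. SRSF5 is an SR protein that promotes exon inclusion, and the intron of 1215 bases at chr14:70235969-70237183 follows one of its coding exons. It is kept whole only in Gencode transcripts annotated as retained introns, and reading into it meets the stop codon shown above. Its PSI was 0.222, 0.252 and 0.460 in EPI control and 0.131, 0.144 and 0.275 in EPI knockdown. Libraries are given by their place in the list of each group. In MES it was 0.125, 0.268 and 0.264 in control and 0.0826 and 0.202 in knockdown.

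The groups overlapped in each state, since the third library of each EPI group was well above the other two. At the same place in the list, however, the knockdown library was below the control library in 5 of 5 pairs, with differences of -0.0907, -0.108 and -0.185 in EPI and -0.0428 and -0.0665 in MES. Among all retained introns in the 3 comparisons, 7.25% were lower at all 5 places and 2.38% higher. The difference of the means was -0.128 ± 0.088 (SE, 3 against 3 libraries) in EPI and -0.0546 ± 0.093 (2 against 2) in MES, with limma-moderated adjusted p of 1 and 0.936. Without the third EPI control library the EPI difference was -0.0533, under the cutoff, and without the second MES control library the MES difference was 0.0169.

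With the place in the list as a replicate block, the same difference in EPI had a limma-moderated adjusted p of 2.11e-13, so that the intron was called. In MES the blocked adjusted p was 0.0405, with a difference below the cutoff of 0.1. The tables do not number the libraries. Libraries at the same place of the EPI control and EPI knockdown lists deviated together from their group means in gene levels (r = 0.282, 0.58 and 0.493 across genes), but less in the inclusion of cassette exons (r = 0.00799, 0.163 and 0.0998 across events). At the first EPI place, the inclusion r was below the highest r with another place (0.0726). The call in EPI therefore rests on this pairing. In MES, r at the same place was 0.127 in gene levels and 0.17 in inclusion. Swapped places gave the same sizes with opposite sign, -0.127 and -0.17, so these values say little about the pairing in MES. Counts over the places of both states, above and below, assume that pairing. Reads across the downstream end of the intron can also come from a Gencode transcript whose exon starts inside it, and the tables do not separate both sources.

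The shorter SRSF5 intron, 285 bases at chr14:70235614-70235898, is the one just upstream. It was kept at a PSI of 0.0712, 0.109 and 0.126 in EPI control and 0.0868, 0.0733 and 0.0959 in EPI knockdown. The MES values were 0.0719, 0.0885 and 0.0952 in control and 0.0762 and 0.0765 in knockdown. The ranges overlapped in both states, with 3 of 5 places lower. The neighbouring introns of 1 gene thus had different values, but their difference was not tested.

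SRSF5 also has a pair of 5′ splice sites at the end of its first exon, 125 bases apart. The longer exon was used at a PSI of 0.112, 0.122 and 0.111 in EPI control and 0.144, 0.127 and 0.123 in EPI knockdown. In MES it was 0.110, 0.111 and 0.116 in control and 0.130 and 0.152 in knockdown. All knockdown libraries were above all control libraries of their state, and the PSI was higher at 5 of 5 places, a pattern found in 2.37% of all events. The differences were small, 0.0165 ± 0.0074 (SE, n = 3 and 3) in EPI and 0.0304 ± 0.011 (n = 2 and 2) in MES, and did not pass the test (limma-moderated adjusted p = 0.824 and 0.855). The segment between both sites lies in no coding sequence of Gencode.

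**Figure D1:**
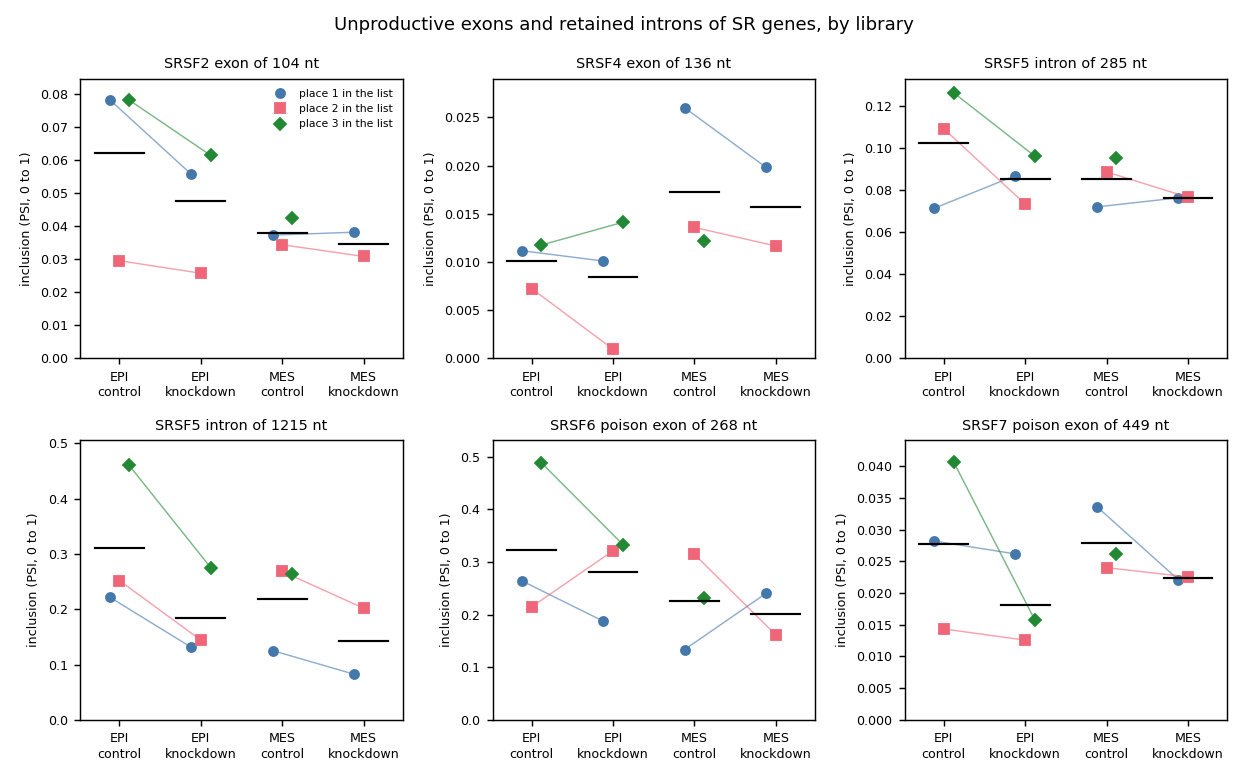
PSI (0 to 1) of 6 unproductive exons and retained introns in each library, by group, with points of the same place in the list joined within a state and black lines for group means. The SRSF5 intron of 1215 nt is lower at the knockdown end of each joining line, with differences of -0.0428 to -0.185, while the SRSF6 poison exon goes both ways.

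SRSF6 promotes exon inclusion and limits its own level through a poison exon of 268 bases at chr20:42087793-42088060. The exon lies only in transcripts annotated as nonsense-mediated decay or without a defined coding sequence, and was the most included poison exon of the family. Its PSI was 0.264, 0.215 and 0.489 in EPI control and 0.188, 0.321 and 0.333 in EPI knockdown. It was 0.134, 0.315 and 0.231 in MES control and 0.240 and 0.161 in MES knockdown. These ranges overlapped in each comparison, and knockdown was lower at 3 places and higher at 2.

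Reads of the productive form varied more than those of the unproductive form. Scaled reads that skip the poison exon ranged from 56.9 to 413 over the 11 libraries (CV 54.3%), while those that include it ranged from 53.9 to 156 (CV 21.3%). The difference after knockdown was -0.0418 ± 0.096 in EPI and -0.0232 ± 0.099 in MES (SE, limma-moderated adjusted p = 0.705 and 0.906). These standard errors were about as large as the cutoff of 0.1.

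SRSF7, which also regulates mRNA export and 3′ end formation, has a poison exon of 449 bases at chr2:38976040-38976488. Its stop codon follows after a few codons, as shown above. The PSI was 0.0282, 0.0143 and 0.0407 in EPI control and 0.0262, 0.0126 and 0.0157 in EPI knockdown. It was 0.0336, 0.0240 and 0.0261 in MES control and 0.0221 and 0.0226 in MES knockdown. The exon was lower after knockdown at 5 of 5 places, a pattern found in 2.85% of all events, and the MES groups did not overlap while the EPI groups did. The difference was -0.00960 ± 0.0087 in EPI and -0.00648 ± 0.0048 in MES, and neither passed the test (limma-moderated adjusted p = 0.705 and 0.763).

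The coding part of SRSF7 has a short cassette exon of 36 bases, a multiple of 3, at chr2:38973286-38973321. Its PSI ranged from 0.872 to 0.917 in EPI control, from 0.890 to 0.903 in EPI knockdown, from 0.853 to 0.897 in MES control and from 0.849 to 0.868 in MES knockdown. The groups overlapped in each comparison.

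SRSF2, which acts in splicing and in transcription elongation, has an exon of 104 bases at chr17:74731854-74731957 that occurs only in transcripts annotated as nonsense-mediated decay or retained intron. It was included at a PSI of 0.0783, 0.0296 and 0.0782 in EPI control and 0.0558, 0.0258 and 0.0615 in EPI knockdown. In MES it was 0.0373, 0.0344 and 0.0426 in control and 0.0382 and 0.0308 in knockdown. In both EPI groups the second library was lowest, and 4 of 5 places were lower after knockdown. The difference was -0.0144 ± 0.020 in EPI and -0.00134 ± 0.0040 in MES.

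SRSF4 is one of the larger SR proteins. A nonsense-mediated decay exon of 136 bases at chr1:29495015-29495150, had a PSI between 0.000953 and 0.0260 in the 11 libraries. An unproductive exon of 175 bases at chr1:29492402-29492576 has a premature stop codon. With the same flanking exons it is listed in the MES knockdown tables only, with a PSI of 0.0458 and 0.0324 in control and 0.0320 and 0.0342 in knockdown. With a nonsense-mediated decay exon of 184 bases as upstream neighbour it is listed in all 3 comparisons. There its PSI was 0.869 to 1 in the 11 libraries, a share among transcripts that hold that neighbour. A further exon of 228 bases at chr1:29486376-29486603, found in 1 transcript annotated as nonsense-mediated decay, had a PSI between 0.000585 and 0.0156. Its coding exon of 90 bases at chr1:29476615-29476704 was included at 0.961, 0.973 and 0.984 in EPI control, at 0.930, 0.974 and 0.964 in EPI knockdown, at 0.9435, 0.954 and 0.956 in MES control and at 0.9432 and 0.903 in MES knockdown. The MES groups did not overlap, though the first libraries of both groups were almost equal. The 1 member event with an unadjusted p under 0.05 in EPI was listed as a choice between this exon and its upstream neighbour. Its difference was 0.0400 ± 0.026 in the form that the tables count as included (limma-moderated adjusted p = 0.684). Both exons were almost always included, the neighbour at a PSI of 0.994 to 1 in the EPI libraries where the exon of 90 bases flanks it. The value thus compares junctions that most transcripts hold together, and shows no choice between the exons. The neighbour is also listed in EPI with other flanking exons and few reads. There its PSI was 0.657 in the second EPI knockdown library (23 inclusion and 6 skipping reads) and 1 in the other EPI libraries. That difference was -0.114 ± 0.11 (SE, limma-moderated adjusted p = 0.705), and it rests on 1 library.

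SRSF10, an SR protein that acts as a splicing repressor when dephosphorylated, has a coding exon whose 3′ splice site can shift by 3 bases, between the AGs shown above. The exon of 54 bases at chr1:24298063-24298116 was included at 0.976, 0.983 and 0.969 in EPI control and 0.959, 0.975 and 0.953 in EPI knockdown. It was included at 0.968, 0.962 and 0.949 in MES control and at 0.946 and 0.922 in MES knockdown. Inclusion was lower at 5 of 5 places. Reads that skip the exon numbered 10, 5 and 10 in EPI control and 22, 6 and 18 in EPI knockdown, and 13, 18 and 23 in MES control and 19 and 33 in MES knockdown, so the values rest on few reads. The MES groups did not overlap and the EPI groups did. The difference was -0.0136 ± 0.0077 in EPI and -0.0311 ± 0.012 in MES (limma-moderated adjusted p = 0.705 and 0.763). Its version of 51 bases shares the skipping reads and gave -0.0230 ± 0.016 and -0.0546 ± 0.026.

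The upstream of the pair of SRSF10 3′ splice sites was used at a PSI between 0.743 and 0.798 in the 11 libraries. All groups overlapped. SRSF11 has 3′ splice sites 21 bases apart at chr1:70715614-70715634, and the upstream one was used at 0.0659, 0.0627 and 0.0620 in EPI control and 0.0460, 0.0816 and 0.0637 in EPI knockdown. It was used at 0.0194, 0.0476 and 0.0621 in MES control and 0.0536 and 0.0252 in MES knockdown. Many of the other events were close to constitutive. Of the 43 distinct events, 22 had a mean PSI over 0.99 or under 0.01, and 23 had fewer than 10 reads of the rarer form. These included all events of SRSF3 and SRSF9, 4 events and 1 event, and the other SRSF6 exon. Some SRSF4 events with few reads were not, such as the event listed as a choice between its exons of 175 and 136 bases. Its PSI was 0.357 and 0.292 in MES control and 0.379 and 0.250 in MES knockdown. Some Gencode transcripts hold both exons, so it need not be a choice.

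**Figure D2:**
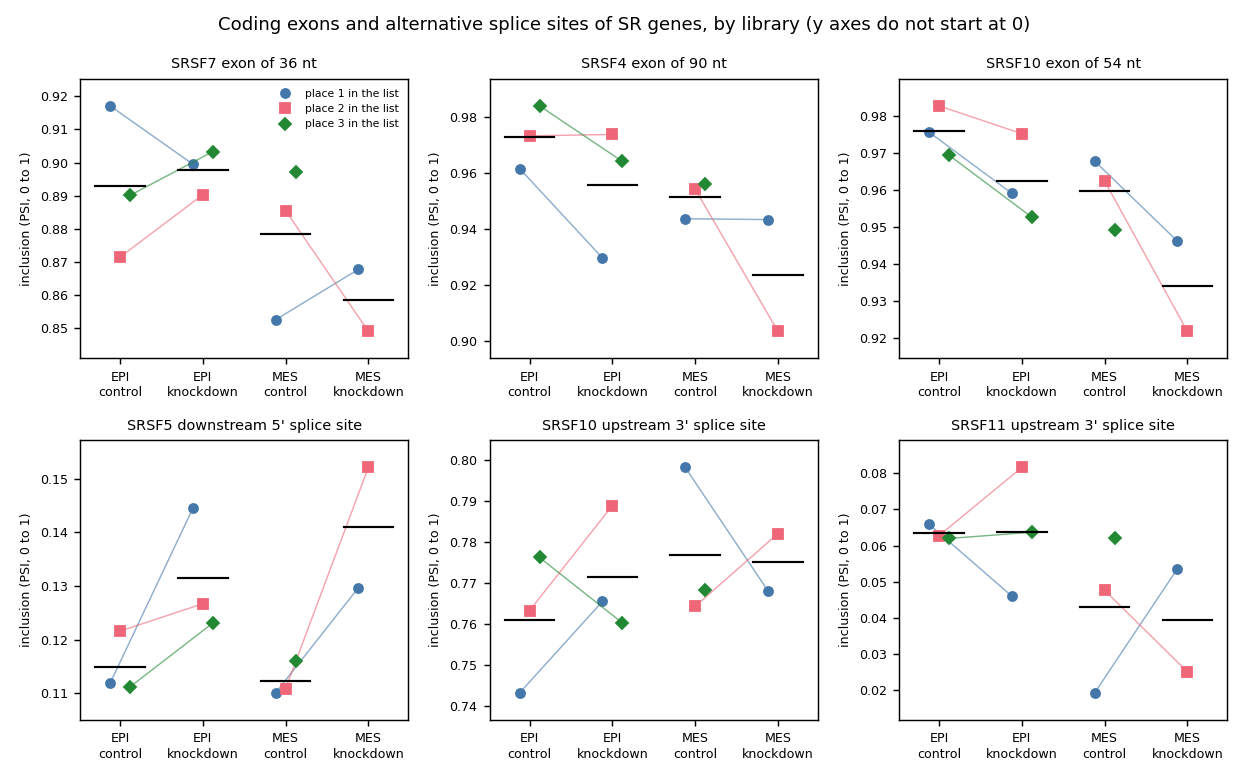
PSI (0 to 1) of 3 coding exons and 3 alternative splice sites in each library, by group, with points of the same place in the list joined within a state and black lines for group means; the y axes do not start at 0. The SRSF5 downstream 5′ splice site is higher and the SRSF10 exon lower at the knockdown end of each joining line, with differences of up to 0.0412 and -0.0405.

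Over the 19 member events that were tested in all 11 libraries, 4 were lower after knockdown at all 5 places and 1 was higher, where 2.85% and 2.37% of all events were. The 4 were the SRSF5 intron, the SRSF7 poison exon and both versions of the SRSF10 exon, which share reads. Among retained introns alone, 7.25% were lower at all 5 places. These shares include events without a difference at some place, and the member counts were not tested against them. Whether the effect of knockdown differed between the states was tested in 1 fit of the 11 libraries. None of the 19 events passed at an adjusted p under 0.05, which 0.0124% of all events did, and 0 had an unadjusted p under 0.05. The lowest unadjusted p was 0.389, and limma on the logit was not run for this test.

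The second question was how the SR genes are spliced in the mesenchymal compared with the epithelial state. None of 30 tested events was called between the control groups, where 1.6% of all events were. An unadjusted p under 0.05 was reached by 4 member events, against 11.6% of all events. Limma on the logit of PSI called 0 member events, where it called 523 of 67451 events in all. It gave 1 member event an unadjusted p under 0.05. The median size of the difference was 0.00219, against 0.00934 over all events.

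Of the 4, the SRSF6 poison exon had the largest difference. Its mean PSI was 0.323 ± 0.15 (SD, n = 3) in EPI control and 0.227 ± 0.091 (n = 3) in MES control, a difference of -0.0960 ± 0.099 (SE; limma-moderated adjusted p = 0.121). The groups overlapped. Its own dispersion, 25.7 times the counting error, was larger than the moderated value of 4.01 used by the test. Without the second EPI control library, or without the second MES control library, the exon was called, with differences of -0.150 and -0.140 (limma-moderated adjusted p = 0.0309 and 0.0294). Without the third EPI control library the difference was -0.0129, and without the first MES control library -0.0495 (limma-moderated adjusted p = 0.768 and 0.804).

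The exon of SRSF2 had a mean PSI of 0.0620 ± 0.028 in EPI control and 0.0381 ± 0.0041 in MES control (difference -0.0239 ± 0.016 SE, limma-moderated adjusted p = 0.0727). Here too the exon's own dispersion, 21.1 times the counting error, was larger than the moderated value of 4.12 used by the test. The second EPI control library was below all MES control libraries, and the other two EPI control libraries were above them. Without that library the limma-moderated adjusted p was 0.000447, at a difference of -0.0402. Without either of the other EPI control libraries the difference was -0.0158 (limma-moderated adjusted p = 0.774 and 0.671). The SRSF4 exon of 228 bases had 4, 3 and 4 inclusion reads in EPI control and 9, 13 and 2 in MES control (difference 0.00689 ± 0.0039, adjusted p = 0.215). The SRSF4 exon of 136 bases was higher in each MES control library (0.0260, 0.0136 and 0.0122) than in each EPI control library (0.0112, 0.00725 and 0.0118), at a limma-moderated adjusted p of 0.66. The SRSF4 exon of 90 bases was lower in each MES control library than in each EPI control library (difference -0.0215 ± 0.0076, limma-moderated adjusted p = 0.465).

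The SRSF5 intron of 1215 bases differed by -0.0922 ± 0.088 between the control groups (limma-moderated adjusted p = 0.714), and by place it was lower in MES at 2 of 3 places. Without the third EPI control library the difference was -0.0178. With the replicate block by place the limma-moderated adjusted p was 0.000524, at a difference under the cutoff. In that fit the intron's own dispersion, 32.7 times the counting error, was larger than the moderated value of 5.83 used. Same-place libraries of both control lists deviated together only weakly in gene levels (r = 0.0788, 0.184 and 0.265). In cassette exon inclusion r was -0.0719, 0.0503 and 0.0309. This pairing is therefore less well based than that of the EPI groups. The SRSF7 poison exon had almost the same mean in both states, 0.0278 ± 0.013 and 0.0279 ± 0.0051 (SD, n = 3 each), with a difference of 0.000162 ± 0.0082 (SE). The comparisons of knockdown and of states share the control libraries, so these values are not independent of those given above.

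Levels of the SR genes were read from the junction reads summed over cassette exons found in all 3 comparisons. This gave a value for 6 of the 10 genes, SRSF2, SRSF4, SRSF6, SRSF7, SRSF10 and SRSF11. For SRSF2 and SRSF6 the sum held 1 exon each, the unproductive one described above. Their levels are therefore the same inclusion and skipping reads as their PSI, and not a separate measure. A gene was called at a log2 fold change over 1 in size and an adjusted p under 0.05. None of the 6 was called after EPI knockdown (0.189% of 9014 genes were), after MES knockdown (2.27%) or between the control groups (12.5%). An unadjusted p under 0.05 was reached by 0, 2 and 2 of them. At least 0.255%, 4.16% and 23.9% of all genes reached it, the shares that passed the adjusted p. The full share of all genes was not counted. Without the fold cutoff, 0 passed after EPI knockdown and 0 after MES knockdown, where 0.255% and 4.16% of all genes did. The median log2 fold change of the 6 was -0.141, -0.173 and 0.196, against -0.00756, -0.0133 and 0.0112 over all genes.

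SRSF4 was the 1 gene of the 6 that passed the adjusted p without the fold cutoff, which 23.9% of all genes did between the control groups. Its level was 2836, 3129 and 2342 in EPI control and 1621, 1652 and 1841 in MES control (log2 fold change -0.69 ± 0.17 SE, limma adjusted p = 0.0112), and 2083, 3023 and 2436 in EPI knockdown and 1569 and 2008 in MES knockdown. All MES libraries were below all EPI libraries. SRSF2 stood at 1261, 1714 and 1234 in EPI control and at 2276, 1887 and 1626 in MES control (0.46 ± 0.20, limma adjusted p = 0.106), and the ranges overlapped.

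After MES knockdown, SRSF7 stood at 1766 and 1963 against 2766, 2662 and 2748 in MES control (-0.55 ± 0.18, limma adjusted p = 0.1). SRSF11 stood at 1179 and 1515 against 1771, 1923 and 2569 (-0.62 ± 0.25, limma adjusted p = 0.174). Both knockdown groups lay below their controls without overlap, which groups this small can do without a true difference. Neither passed the test. In EPI the same genes overlapped, with SRSF7 at 2731, 2105 and 2346 in control and 2564, 1746 and 2269 in knockdown (-0.14 ± 0.16), and SRSF11 at 2456, 1840 and 2550 in control and 2223, 1289 and 2121 in knockdown (-0.31 ± 0.23).

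SRSF6 was the most variable, at 347, 342 and 238 in EPI control, 440, 111 and 239 in EPI knockdown, 540, 239 and 331 in MES control and 329 and 500 in MES knockdown. SRSF10 ranged from 558 to 1191 over the 11 libraries, and the lowest library of both genes was the second EPI knockdown. By root mean square difference of the centred log2 level over the 11 libraries, the 3 genes most like the mean of the 6 were SNRPB2 (0.0719), MTRF1L (0.0808) and GNG12 (0.0832). SRSF7 was at 0.142 from that mean and SRSF6 at 0.452.

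**Figure D3:**
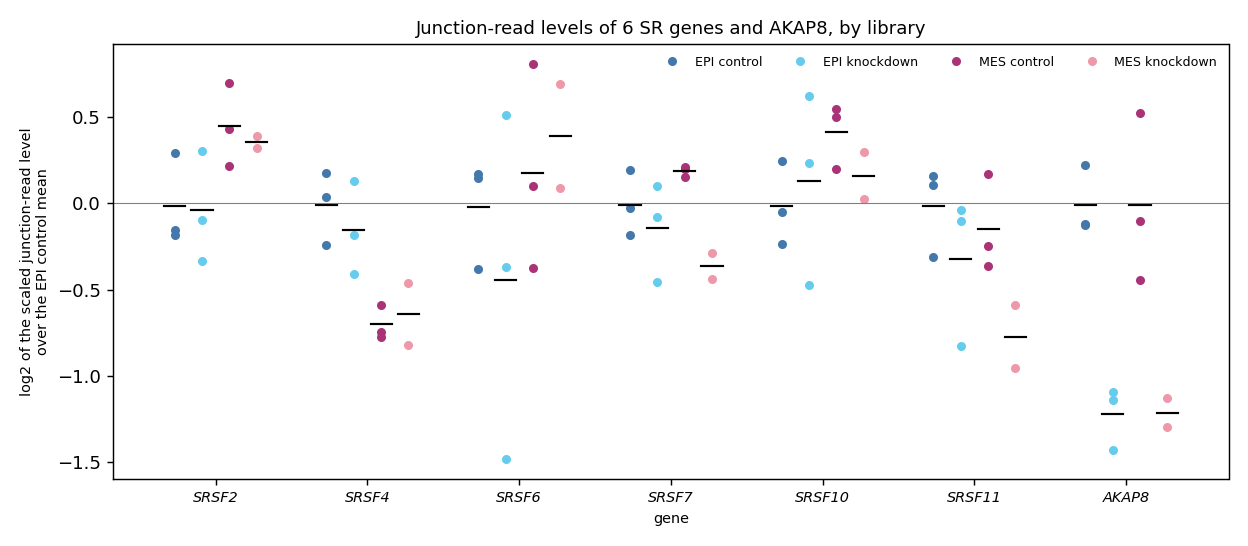
Log2 of the scaled junction-read level over the EPI control mean (y axis) for 6 SR genes and AKAP8 (x axis), with 1 point per library, colours for the 4 groups and black lines for group means. AKAP8 is lower in the 5 knockdown libraries, SRSF4 is lower in the 5 MES libraries, and SRSF6 spreads widely in every group.

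For SRSF3, SRSF5 and SRSF9, all junction reads of a comparison's own tables were summed, a choice made after seeing the data. SRSF3, a small SR protein that acts in export and 3′ end processing, stood at 3450, 3688 and 2974 in EPI control and at 5384, 4696 and 4678 in MES control (log2 fold change 0.55 ± 0.13 SE, limma adjusted p = 0.00892). The groups did not overlap. Of the 9 genes with a value there, SRSF3 and SRSF4 passed the adjusted p, 2 of 9 against 34.5% of all genes, and none passed the fold cutoff as well (16.3% of all genes). After knockdown, 0 of 9 genes in EPI and 0 of 8 in MES were called (0.0576% and 3.68% of all genes). The unadjusted p was under 0.05 for 0 and 2 genes (at least 0.0576% and 8.92% of all genes, the shares past the adjusted p). None passed without the fold cutoff (0.0576% and 8.92%). SRSF5 stood at 11200, 7158 and 11420 in EPI control and at 13660, 7141 and 13160 in MES control. SRSF9 stood at 3834, 4325 and 4004 in EPI control and at 4682, 6007 and 4776 in EPI knockdown (0.34 ± 0.16, limma adjusted p = 0.588). The SRSF9 groups did not overlap.

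SR proteins are phosphorylated by the SRPK, CLK and related kinases and carried into the nucleus by TNPO3. Of 9 such genes, all measured, limma called none in any comparison. An unadjusted p under 0.05 was found for 1, 2 and 2 after EPI knockdown, after MES knockdown and between the control groups. At least 0.255%, 4.16% and 23.9% of all genes had one, the shares that passed the adjusted p. The full shares were not counted. Past the adjusted p without the fold cutoff between the control groups were the kinases CLK3 (log2 fold change -0.84, limma adjusted p = 0.0138) and SRPK1 (-0.47, limma adjusted p = 0.043), 2 of 9 where 23.9% of all genes passed. The 2 largest values were DYRK1A (-0.37) and TNPO3 (0.30) after EPI knockdown, and PRPF4B (-0.89) and CLK4 (-0.74) after MES knockdown, none past the test. Of 14 SR-related genes, 12 were measured and limma called none. At an unadjusted p under 0.05 there were 0, 1 and 5, against at least the same shares of all genes. Their largest values were LUC7L3 (-0.58) and U2AF2 (-0.56) after EPI knockdown, LUC7L3 (-0.68) and PNN (-0.64) after MES knockdown, and U2AF2 (-0.55) and U2AF1 (0.48) between the control groups.

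Of 10 nonsense-mediated decay factors, on which the level of unproductive transcripts depends, 6 were measured and limma called none. At an unadjusted p under 0.05 there were 0, 2 and 0. Of all genes, at least 0.255%, 4.16% and 23.9% were, the shares that passed the adjusted p. The largest values were UPF3A (-0.26) and SMG5 (0.15) after EPI knockdown, UPF3B (-1.20, limma adjusted p = 0.0658) and SMG5 (0.55) after MES knockdown, and UPF3B (0.49) and UPF2 (0.40) between the control groups. Whether these levels bear on the PSI of poison exons was not tested.

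The last question was where AKAP8 binds SR transcripts. At a log2 of IP over input of at least 2 and a −log10 adjusted p of at least 3, 1 of the 10 genes had a peak on its strand in EPI and 0 in MES, where 18.6% and 11.5% of 11078 genes with an event did. The EPI peak lay in SRSF6 at chr20:42087692-42087712, with a log2 of 3.86 (median of all EPI peaks 3.78) and a −log10 adjusted p of 4.18. It was intronic in all 6 transcripts that span it, and 80 bases lay between it and the start of the poison exon. Its 21 bases hold a run of 6 G. Of windows of that length at all EPI peaks, 52.0% hold GGGG on the transcribed strand and 4.89% hold GGGGGG.

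The MES list has no peak over SRSF6. Its 1 peak over the family, in an intron of SRSF4 at chr1:29507974-29508000, had a log2 of 2.38 and a −log10 adjusted p of 2.07, under the cutoff. No peak of either state lay antisense to the 10 genes. The merged lists give no value per replicate, so the difference between the states was not tested. The SRSF6 poison exon next to the EPI peak was among those whose PSI did not pass the test after knockdown, and the SRSF5 intron has no peak in either list.

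**Figure D4:**
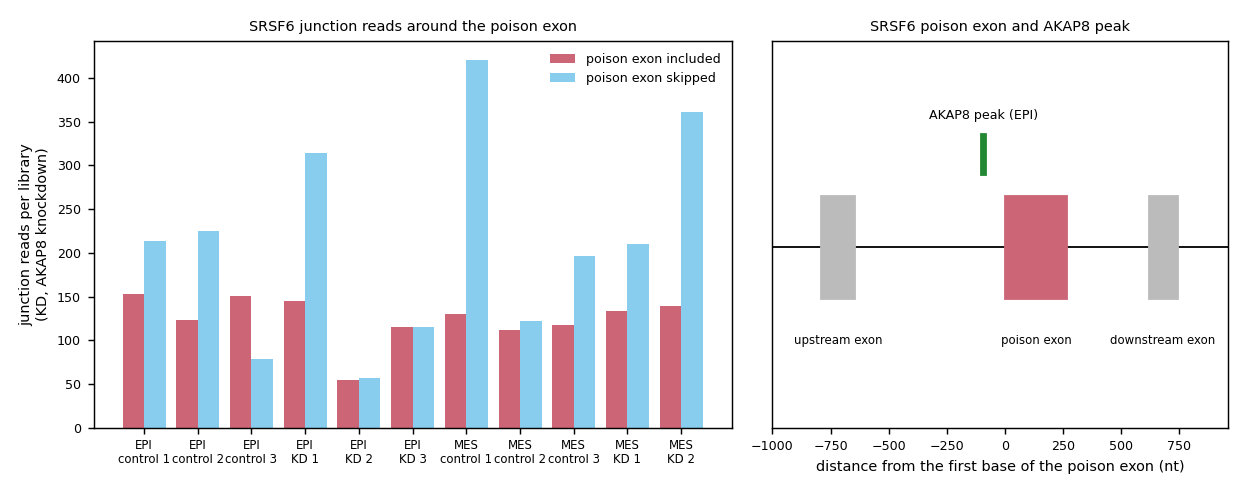
Left, junction reads in each library that include or skip the SRSF6 poison exon (y axis, reads; x axis, libraries by group and place in the list). Right, the AKAP8 peak of EPI cells and the exons by distance in nucleotides from the first base of the poison exon, with the peak 80 nt upstream; skipping reads vary more between libraries than inclusion reads.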

How the data were processed

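The tables of splicing events hold the inclusion and skipping junction read counts that the authors obtained with STAR and rMATS on GRCh37, with the libraries of a group listed in 1 field. PSI was recomputed from these reads and the deposited effective lengths. The authors' p-values and FDR, and 30 columns in which they list PSI, were left aside. The deposited gene table was not used, because its symbols are numbers and it holds the authors' comparisons only. The eCLIP values, log2 of IP over input and −log10 adjusted p, are those the authors deposited for peaks merged over 2 replicates.

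The test of events, for means of 20 or more junction reads a library, was a quasi-binomial likelihood-ratio F test, with the dispersion moderated by squeezeVar of limma 3.58.1 (R 4.3.3; robust trend on the reads of the rarer form, floor of 1), and Benjamini-Hochberg adjustment within type and comparison over all events. ΔPSI is knockdown minus control, or MES minus EPI. The MES knockdown tables hold 2 of the 3 MES control libraries. Gene values were scaled by median-of-ratios size factors and tested with limma on log2(value + 1), if at least 10 in at least 2 libraries, so fold changes of low genes are understated. The event test and the gene fit were tested on simulated data. Summed junction reads cover only genes with an event, change with splicing and can count a read more than once. Gencode v44 lifted to GRCh37 gave the annotation.

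The named exons and introns were, for each gene, the 2 cassette exons or retained introns with the most reads of the rarer form, and any called event. Alternative splice sites, the SRSF4 exon of 228 bases and the SRSF4 exon pair were named after their values were seen. The genes, lists and tests were chosen with earlier results of these data known. Alternatives were the dispersion trend, limma on the logit of PSI, the read minimum, the cutoffs, raw read shares, normalization, pseudocount, filters, leaving out each library, and a replicate block by place in the list. Libraries at the same place of the EPI control and EPI knockdown lists were taken as paired from gene levels, where every r was above 0.1.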

Additional observations from a re-analysis of the deposited data

How the results depend on the processing

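No SR event was called under the other dispersion trend, limma on the logit, either lower read minimum, a ΔPSI cutoff of 0.05, raw read shares or, after MES knockdown, the third MES control. After knockdown in either state, limma on the logit called 0 of all events, so its count says nothing about the SR genes there. The replicate block by place in the list gave 1 called event after EPI knockdown, the SRSF5 intron of 1215 bases, and changed no other call of an SR event or gene. After MES knockdown the blocked event test rests on 2 pairs and has little power, so its count says nothing about stability there. It called 17 of all 59288 events. The SRSF5 intron of 1215 bases passed its limma-moderated adjusted p (0.0405), but not the ΔPSI cutoff of 0.1. Leaving out 1 library gave 0 to 1 called events between the control groups, the SRSF6 poison exon. The interaction stayed at 0 under its 3 alternatives. Without the fold change cutoff, 1 gene, SRSF4, passed between the control groups, and over every listed peak 2 peaks in place of 1 lay over SR genes. Another alternative summed only skipping reads, with each skipping junction counted once and inclusion reads left out. It turned the log2 fold change of SRSF2 after EPI knockdown to 0.0214 and of SRSF10 after MES knockdown to 0.42. For SRSF10 it counts only the reads that skip its alternative coding exon, so 0.42 is no measure of the gene's level. Scaling to total reads turned the log2 fold change of SRSF4 after MES knockdown to -0.0629. The causes of the SRSF2 and SRSF4 turns were not tested.

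Leaving out 1 library turned the sign of these uncalled differences, given from lowest to highest. Log2 fold changes of levels after EPI knockdown ran for SRSF10 -0.10 to 0.44, SRSF2 -0.20 to 0.12, SRSF6 -0.90 to 0.0887 and SRSF7 -0.26 to 0.0174. PSI differences between the control groups ran for SRSF11 228-base exon -0.00133 to 0.00353, SRSF11 225-base exon -0.00133 to 0.00275 and SRSF7 449-base exon -0.00654 to 0.00664. PSI differences after MES knockdown ran for SRSF11 228-base exon -0.0250 to 0.00440, SRSF11 225-base exon -0.0235 to 0.00388, SRSF2 104-base exon -0.00501 to 0.00234, SRSF4 136-base exon -0.0103 to 0.00215, SRSF5 285-base intron -0.0122 to 0.00444, SRSF5 1215-base intron -0.126 to 0.0169, SRSF6 268-base exon -0.114 to 0.0672 and SRSF7 36-base exon -0.0270 to 0.00585. Log2 fold changes of levels after MES knockdown ran for SRSF2 -0.21 to 0.0359, SRSF4 -0.12 to 0.24 and SRSF6 -0.0854 to 0.53. PSI differences after EPI knockdown ran for SRSF4 136-base exon -0.00453 to 0.00205, SRSF6 268-base exon -0.0957 to 0.0413 and SRSF7 36-base exon -0.00588 to 0.0169. Log2 fold changes of levels between the control groups ran for SRSF6 -0.12 to 0.47. 

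The precision is limited by 2 or 3 libraries per group and by few reads of the rarer form, fewer than 10 in 23 of 43 events. The share of all events or genes whose groups do not overlap was not counted, so statements of no overlap only describe the values. Where an arm kept 1 library, it was assumed to vary like the others.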
